A study of Mus musculus with 6 samples.

Results

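Bone of growth hormone-deficient mice was examined 24 hours after a single injection of growth hormone (GH), on 3 of the 6 two-colour microarrays of the series. The members were chosen by the stated time of death alone, 24 hours after injection, which gave replicates 4, 5 and 6. The animals were C57BL/6J-Ghrhr<lit> (lit/lit) mice at 4 weeks of age. They carry a disrupted receptor for GH-releasing hormone, so that the treated mice and their controls alike lacked normal GH secretion, and no mouse with an intact receptor was included. Treated mice received GH at 4 mg per kg under the skin and control mice received phosphate-buffered saline (PBS). RNA from the bones of 2 animals made up each pool, and each array set 1 GH pool, labelled with Cy5, against 1 PBS pool of other animals, labelled with Cy3. The remaining 3 arrays (replicates 1 to 3) held the same comparison 6 hours after injection. Each value is a log2 ratio of GH over PBS, a difference and not a level. Its direction is likely rather than stated, from the dyes and the order of the channels in the labels. No array had its dyes swapped, so a dye effect of a single probe cannot be told apart from a GH effect in these ratios. No channel intensity was used here, so whether a probe stood above background is unknown, and the tissue could not be checked by the levels of bone markers.

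GH acts through its receptor on the cell surface, which has no kinase of its own and works through the kinase JAK2. JAK2 phosphorylates the transcription factors STAT5A and STAT5B, which enter the nucleus and switch on target genes such as Igf1, the gene of insulin-like growth factor I, and Cish and Socs2, inhibitors that dampen the receptor again. In bone, GH and locally made IGF-I are known to stimulate growth plate cartilage and bone-forming osteoblasts. Bone taken whole also holds marrow, cartilage, vessels and adhering muscle.

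Cish, the inhibitor of the SOCS family induced by STAT5, is shown first, with its promoter, because it is a textbook target of the GH receptor. The promoter is that of the RefSeq table (build GRCm38.p6, plus strand, chr9:107296409-107296708), 250 bases before the annotated start and 50 after it, with matches to the STAT5 motif TTCNNNGAA in capitals.

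Cish: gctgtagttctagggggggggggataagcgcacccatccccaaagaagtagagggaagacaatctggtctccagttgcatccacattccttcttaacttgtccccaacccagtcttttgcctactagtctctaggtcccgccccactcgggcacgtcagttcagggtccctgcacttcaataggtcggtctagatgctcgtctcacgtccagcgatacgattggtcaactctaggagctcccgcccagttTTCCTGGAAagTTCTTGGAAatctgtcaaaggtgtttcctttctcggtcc

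The first match begins at the annotated start and the second 11 bases after it, and they do not overlap. The motif reads the same in form on both strands. Cish had log2 ratios of 0.37, 0.31 and 0.93 on replicates 4, 5 and 6, all above 0. The mean was 0.54 ± 0.16 (moderated SE, n = 3 arrays), 1.45-fold, with an adjusted p of 0.054, so Cish did not pass the threshold of 0.05 used throughout. The same motif stood in the promoters of 48 of 612 genes that rose (7.84%), 44 of 617 genes that fell (7.13%), 578 of 7121 named genes tested (8.12%) and 2726 of all 32851 promoters in the table (8.30%). These shares are a description of 300-base windows.

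Most rows had the same sign on the 3 arrays. Of 18361 tested rows of the array with a value on all 3, 5865 were above 0 on all 3 and 5555 were below 0 on all 3, together 62.2%. Over rows, Pearson's r was 0.722 between replicates 4 and 6, 0.606 between replicates 5 and 6 and 0.572 between replicates 4 and 5. Rows are not independent replicates, and all arrays share 1 dye orientation, so these coefficients only describe the profiles. The spread was widest on replicate 6, where the SD of the log2 ratios was 0.913 and 22.6% of rows lay past 2-fold. It was 0.767 with 18.1% on replicate 4 and 0.676 with 11.7% on replicate 5.

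At the level of single rows, 4116 of 19326 tested rows (21.3%) differed between GH and PBS at an adjusted p under 0.05 (limma, Benjamini-Hochberg). GH was higher in 2401 rows (12.4%) and lower in 1715 rows (8.87%). All 3841 rows that passed with 3 values had 1 sign on the 3 arrays, and the other 275 passed on 2 values. The median absolute log2 ratio was 1.03 among rows that passed and 0.37 among all rows. In 741 rows that passed, all 3 arrays lay past 2-fold one way, 470 higher and 271 lower. Of the rows that passed, 1903 carried no single gene name and 2213 carried one. The share that passed was 24.2% among unnamed rows and 19.3% among named rows.

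With the rows of a gene averaged, 3444 of 16678 features (20.6%) passed, 2007 higher (12.0%) and 1437 lower (8.62%). Among the 8803 named genes 1521 passed (17.3%), 759 higher (8.62%) and 762 lower (8.66%). The median log2 ratio was 0.0033 over all features and -0.040 over named genes. These counts rest on replicate 6: without it 0 features and 0 rows passed in limma, while 4124 features still had an unadjusted p under 0.05. Without replicate 4, 831 features passed. Without replicate 2 or 3, 6-hour arrays that enter through the shared spread and the rule on missing values, 1984 of 15600 and 1804 of 15491 features tested passed. Replicates 4 and 6 shared a prefix of the scan file name, and replicate 5 shared the other prefix with the 6-hour arrays. With that prefix as a covariate, where replicate 5 alone sets the 24-hour ratio of a complete feature, 32 features passed. No rise or fall named below was therefore called without replicate 6, 6 of them because too few values were left for a test. Over the 49 gene lists described below, members passed 148 times, and 195, 83, 79, 23, 98 and 0 times with replicates 1 to 6 left out in turn.

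Among named genes that passed, the 10 rises with the largest ratio on their least changed array were Alg11, Apela, Zfp81, Megf6, Ctnnd2, Hey2, Rbm48, Ttll10, Klhl34 and Hira. Where 3 values follow a gene from here on, they are the log2 ratios of replicates 4, 5 and 6. Alg11, a mannosyltransferase that builds the lipid-linked precursor of N-glycans, had ratios of 2.3, 2.34 and 2.36. Its mean was 2.34 ± 0.11 (SE, n = 3), 5.05-fold, with an adjusted p of 0.0057, and the 3 pools were nearly alike. Apela, the gene of a small hormone that binds the apelin receptor, had ratios of 2.09, 2.23 and 2.20, a mean of 2.17 ± 0.20. Hey2, a transcriptional repressor downstream of Notch receptors, had ratios of 1.68, 2.05 and 1.88, a mean of 1.87 ± 0.17. Ctnnd2, which encodes a protein of the delta-catenin family found at cell junctions, had ratios of 1.86, 1.93 and 2.20. All 3 arrays of each of these genes lay well past 2-fold. Hira, a histone chaperone that deposits histone H3.3, closed the list with 1.76, 1.66 and 1.53 and an adjusted p of 0.0396. At 6 hours the ratios of Hira had not shared a sign, with -0.67, 1.79 and 1.07 on replicates 1 to 3. The next gene in that order had 1.53 on its least changed array. All of the 10 rises but Rbm48 and Hira had passed at 6 hours too. The 6-hour means of Alg11, Apela, Hey2 and Ctnnd2 were 2.01, 2.19, 1.45 and 1.75.

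The falls were led by Zbtb33, Cbx3, Phf6, Rbm7, Plekha3, Zfp280b, Rnf139, Pik3r3, Ttc27 and Lars. Zbtb33, the methyl-CpG binding repressor Kaiso, had ratios of -2.32, -3.18 and -3.06, a mean of -2.86 ± 0.35 (SE, n = 3), and was 7.24-fold lower with GH, with an adjusted p of 0.0088. Cbx3, the heterochromatin protein HP1 gamma, had ratios of -2.18, -2.12 and -3.32 and was 5.82-fold lower. Phf6, a chromatin-associated protein with PHD-like zinc fingers, had ratios of -2.40, -2.64 and -2.06. Rbm7, an RNA-binding subunit of the nuclear exosome targeting complex, had ratios of -2.12, -2.32 and -2.06, the closest agreement of the 10. Lars, the cytosolic leucyl-tRNA synthetase, had ratios of -1.69, -2.32 and -2.84. Pik3r3, a regulatory subunit of PI3-kinase, was uneven, with -1.84, -1.74 and -4.06. At 6 hours replicate 1 had lain between -0.43 and 0.52 for all 10 falls, whereas replicates 2 and 3 lay below -1.

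**Figure D1:**
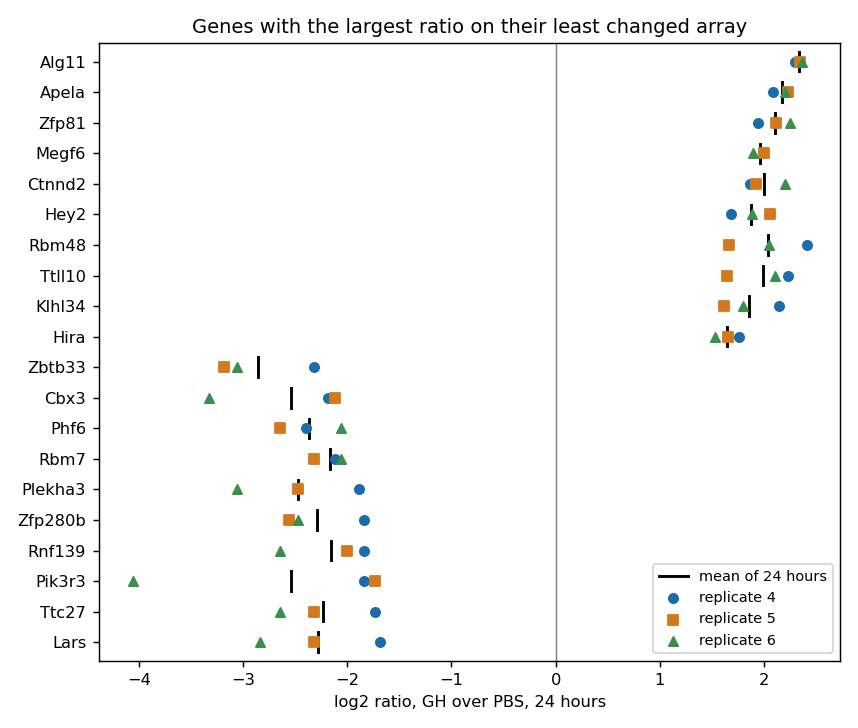
Log2 ratio of GH over PBS 24 hours after injection (x axis) for the 10 rises and 10 falls with the largest ratio on their least changed array (y axis); symbols are the 3 arrays and the black bar is their mean. The rises lie between 1.53 (Hira, replicate 6) and 2.41 (Rbm48, replicate 4), and Pik3r3 on replicate 6 (-4.06) is the widest outlying point of the falls.

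Each call belongs to the array rows that carry the gene's name, and different rows of a gene seldom moved together. Over 3141 pairs of rows from 1924 genes with at least 2 complete rows, r was 0.034 and 51.2% of pairs had the same sign. Both rows passed in 154 pairs, in the same direction in 84 and in opposite directions in 70. Of 62 genes whose complete rows all passed, 20 were higher in all, 14 were lower in all and 28 held rows of both directions. A gene that rests on 1 row therefore has no check from another row. Of 293 genes that passed on an average of several rows, 29 had no row that passed alone in that direction, 57 held a row of the other sign, and in 65 the rows averaged differed between arrays because of missing values. Probe sequences were not used here, so whether the platform annotation pairs each row with the right gene was not tested. Every gene name below is the name in that annotation. Under those names, 16 of 17 muscle genes were above 0 and 9 of 10 neutrophil genes below 0, while 46.4% of named genes were above 0. Both lists were chosen with earlier results of these data known, so these counts do not test the annotation.

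**Figure D2:**
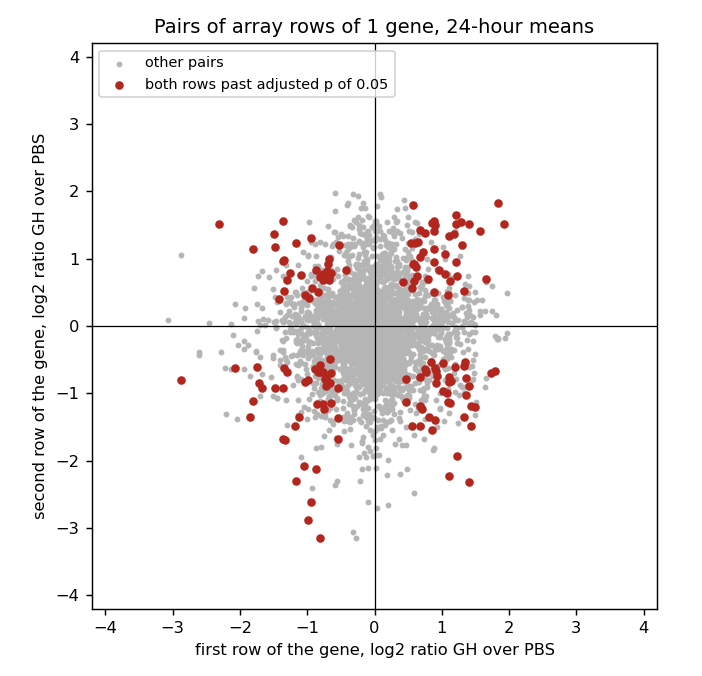
Each point is a pair of array rows annotated with the same gene, with the 24-hour mean log2 ratio (GH over PBS) of the first row on the x axis and of the second on the y axis; red marks the 154 pairs in which both rows passed. The cloud shows no slope (r = 0.034 over 3141 pairs), and red points fill all 4 quadrants, 84 with the same sign and 70 with opposite signs.

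The genes with the largest agreeing rises between rows were Mysm1, Fmnl2, Gata6, Cyp7b1, Zmym2, Lemd3, Tex12 and Fos. Mysm1, a histone H2A deubiquitinase needed for blood cell formation, had a first row of 2.06, 1.64 and 2.05 and a second of 1.46, 1.54 and 1.53. Fmnl2, a formin that elongates actin filaments, had a first row of 1.33, 1.17 and 1.14 and a second of 1.86, 1.29 and 1.80. Gata6, a zinc finger transcription factor, had complete rows of 0.86, 1.52 and 1.23 and of 1.24, 1.45 and 1.84, and a further row with 2 values of 1.79 and 1.63. All tested rows of these genes lay above 0 on every array with a value. For complete rows this follows from the choice of genes whose complete rows all passed higher. A further row of Mysm1 had too few values to be tested. Fos, the AP-1 subunit and immediate-early gene, had a first row of 1.01, 0.82 and 0.80 and a second of 0.70, 1.09 and 1.04, which gave a gene mean of 0.91 ± 0.17 (SE, n = 3), 1.88-fold, with an adjusted p of 0.0192. Lemd3, an inner nuclear membrane protein that binds SMADs and restrains BMP and TGF-beta signals, had row means of 1.05 and 1.08.

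Rows agreed on a fall for Slc4a1ap, Pdlim1, Gabpa, Mcmbp, Sp3, Xiap, Ap1ar and Rabep1. Sp3, a transcription factor that binds GC boxes, had a first row of -1.94, -1.64 and -1.56 and a second of -0.79, -0.56 and -1.18. Gabpa, the DNA-binding subunit of the ETS factor GABP, had a first row of -0.79, -1 and -1.36 and a second of -1.94, -1.25 and -3.06. Pdlim1, a PDZ and LIM domain protein of actin stress fibres, had row means of -1.81 and -1.11, with replicate 4 nearest to 0 in both. Xiap, an inhibitor of caspases, had row means of -0.75 and -1.23.

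The widest opposition was in Pank3, Syde1, Polr1a, Anp32a and Naa20. Pank3, a pantothenate kinase that starts the synthesis of coenzyme A, had rows of 1.84, 0.67 and 1.70, of -0.84, -3.47 and -2.64 and of 1.48, 1.32 and 1.78. Each of the 3 rows passed, and their mean of 0.20 had an adjusted p of 0.549. Polr1a, the large subunit of RNA polymerase I, had row means of 1.22, -0.03 and -1.94. Naa20, a catalytic subunit of an N-terminal acetyltransferase, had row means of -1.37 and 1.56. For these genes the average over rows, which was the value tested per gene, hides opposite ratios.

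Of 18 measured genes of GH receptor signalling and its feedback, 0 rose and 1 fell (5.56% against 17.3% of named genes), with a median log2 ratio of 0.05. The receptor Ghr had -0.38, -0.34 and -0.01, a mean of -0.24 ± 0.15 with an adjusted p of 0.260. The 2 rows of the receptor's kinase Jak2 disagreed, with -0.15, -0.89 and -2.47 in one and 0.78, -0.69 and 0.01 in the other. Stat5a fell 1.67-fold, with -0.62, -0.62 and -0.97 and a mean of -0.74 ± 0.14 (SE, n = 3, adjusted p = 0.0215). Its close relative Stat5b stayed near 0 on every array, with 0.12, 0 and 0.11. Stat3, a related factor that GH can also activate, had 0.36, 0.38 and 0.77 and, like Cish, did not pass (adjusted p = 0.0527). Of the other feedback inhibitors, Socs3 had 0.25, -0.01 and 0.42. Bcl6, a repressor that STAT5 is known to lower in liver, had 0.14, -0.10 and 0.77. Socs2 was not analysed here under a single gene name.

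In the IGF system, 2 of 10 measured genes rose and 1 fell (30%, against 17.3% of named genes), with a median of 0.22. Igf2, the fetal and neonatal growth factor, rose 1.64-fold, with 0.82, 0.57 and 0.74 and a mean of 0.71 ± 0.14 (SE, n = 3, adjusted p = 0.0228). Of its 2 rows, 1 passed alone (1.29, 0.91 and 0.82), and the other had 0.36, 0.23 and 0.67. Igfbp3, the main carrier of IGFs in serum, rose 1.54-fold, with 0.81, 0.48 and 0.59 (adjusted p = 0.0230). Irs1, the docking protein of the IGF-I and insulin receptors, fell 1.51-fold, with -0.86, -0.53 and -0.40 (adjusted p = 0.0361). Neither of its 2 rows passed alone (means of -0.96 and -0.23, adjusted p of 0.0532 and 0.199). With replicates 1 to 6 left out in turn, 4, 2, 2, 0, 2 and 0 of these 10 genes passed, and 1 did with 24 hours fitted alone.

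Igf1 itself depended on the row. Its second row passed, with 0.99, 1.48 and 1.12 and a mean of 1.19 ± 0.17 (adjusted p = 0.0123). Its first row had -0.76, -0.30 and -0.84 and the third -0.23, 0 and -1.56, and neither passed. The ratio averaged over the 3 rows was -0.01 ± 0.23 (SE, n = 3, adjusted p = 0.972). Igfbp5, a carrier protein abundant in bone, had 0.31, 0.08 and -0.06. Igfals, the subunit that stabilises IGFs in serum, was not analysed here under a single gene name.

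**Figure D3:**
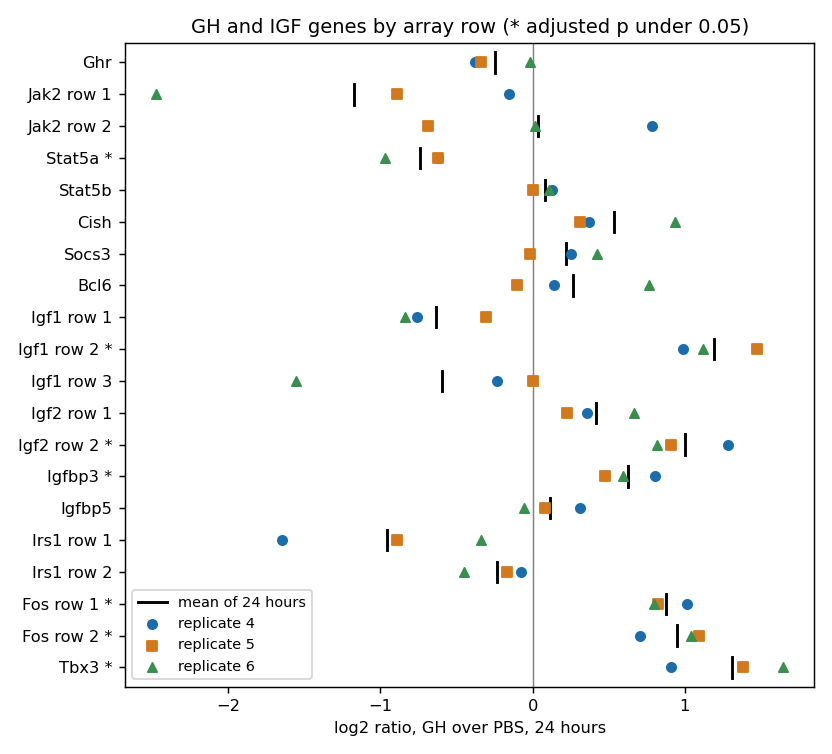
Log2 ratio of GH over PBS at 24 hours (x axis) for each array row of the GH and IGF genes discussed, with Fos and Tbx3 (y axis); symbols are the 3 arrays, the bar is their mean, and an asterisk marks rows that passed. Igf1 row 2 lies between 0.99 and 1.48 while rows 1 and 3 lie at or below 0, and the 2 rows of Fos lie together between 0.70 and 1.09.

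Among kinase pathways that GH and IGF-I receptors feed, 0 of 20 genes of PI3-kinase, AKT and mTOR rose and 4 fell (20%, against 17.3% of named genes), with a list median of 0. Pik3cb, a catalytic subunit of PI3-kinase, had -2.18, -1.56 and -3.84 and was 5.76-fold lower (adjusted p = 0.0193). Mtor, the growth-controlling kinase, had -0.81, -1.15 and -2.25 and was 2.65-fold lower (adjusted p = 0.0377). Rictor, which defines mTOR complex 2, had -0.96, -0.35 and -1.12. These average rows with means of -0.30 and -1.31, of which the last passed alone. All 4 falls were lost without replicate 4, and 1 gene passed when 24 hours was fitted alone. Of 28 genes of the RAS and MAP kinase cascade, 4 rose and 2 fell (21.4%). Ksr1, the scaffold that joins RAF, MEK and ERK, had 1.79, 1.45 and 2.05 and rose 3.39-fold (adjusted p = 0.0082). Map2k6, an activator of p38, had 1.90, 1.42 and 1.97, and Spry1, an inhibitor of receptor tyrosine kinase signals, had 0.60, 0.73 and 0.75. Map3k6 had -1.22, -2.94 and -3.47 and was 5.84-fold lower, and Map2k1, the ERK kinase MEK1, had -1.16, -0.51 and -1.58. Without replicate 4, 2 genes of that cascade passed. Of 18 immediate-early genes, 3 rose and 0 fell (16.7%, near the 17.3% of named genes): Fos, Klf2 (0.42, 0.61 and 0.58) and Ier3 (1.21, 0.36 and 0.70). Jun, the partner of Fos, had -0.69, -0.81 and -0.22 and did not pass (adjusted p = 0.058). Without replicate 4, 0 of the immediate-early genes passed, and without replicate 2, 3 or 5, 2 did (1 with 24 hours alone).

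Transcription factors of the T-box family stood high: 4 of 7 measured members rose (57.1%, against 8.62% of named genes), 0 fell, and the median was 1.06. Tbx3, which keeps progenitor cells of limbs and other tissues undifferentiated, had 0.91, 1.38 and 1.65 and rose 2.49-fold (1.31 ± 0.18, SE, n = 3, adjusted p = 0.0112). Eomes, a factor of early development and of cytotoxic lymphocytes, had 0.79, 1.01 and 1.38 (adjusted p = 0.017). Tbx20, known from heart development, had 1.88, 0.62 and 1.04, and Tbx19, known from the pituitary, had 1.40 and 1.33 on the 2 arrays with a value. Each of the 4 rested on 1 row, and Eomes, Tbx19 and Tbx20 had no value on replicate 1. The others, Tbx15, Tbx4 and Mga, had means of 0.35, 0.45 and 0.11. Without replicate 4, 2 passed, and without replicate 2 or 3, 1 passed. Without replicate 2 or 3, Eomes, Tbx19 and Tbx20 had too few values at 6 hours to be tested. With all arrays, the list median at 6 hours was 0.83. Tbx3 had a 6-hour mean of 1.11 and passed there too, while Eomes, Tbx19 and Tbx20 did not.

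In the signalling pathways that shape bone and cartilage the shares that passed lay from 9.09% to 21.7%, on both sides of the 17.3% of named genes. In the Wnt pathway 2 of 23 genes rose and 3 fell (21.7%). Wnt5a, a ligand of non-canonical Wnt signalling, had 1, 0.87 and 1.20, and Dkk2, an inhibitor of Wnt co-receptors, had 0.86, 1.30 and 2.08. The secreted Wnt antagonist Frzb had -0.69, -0.71 and -1.12, the intracellular antagonist Nkd1 had -1.03, -1.79 and -1.79, and Rspo2, which amplifies Wnt signals, had -0.71, -1.51 and -1.56. Both the rises and the falls held an antagonist and an activating ligand. Without replicate 4, 1 gene of the pathway passed. In the BMP and TGF-beta pathway 5 of 32 rose and 1 fell (18.8%). The BMP receptor kinase Acvr1 had 1.67, 0.99 and 1.56 and the signal transducer Smad5 had 0.64, 0.71 and 0.80 (row means of -0.03 and 1.47), whereas Smad9 had -2.84, -1.69 and -3.18 and was 5.94-fold lower. When replicates 1 to 6 were left out in turn, 8, 3, 3, 0, 3 and 0 of the 32 passed, and 2 rose and 1 fell with arrays scaled to 1 median absolute deviation. In the Notch pathway 2 of 19 rose, Hey2 and the ligand Dll4 (0.79, 0.54 and 0.42), and 0 fell. In the Hedgehog and PTHrP pathway 1 of 11 fell, the co-receptor Boc (-0.67, -1.40 and -0.64). In the FGF pathway 1 of 9 fell, Fgf13, a member that stays inside the cell, with -2.12, -0.97 and -1.60.

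Of 12 secreted signals and receptors that regulate osteoclasts, 3 rose and 1 fell (33.3%, against 17.3% of named genes). With quantile normalization or scaling to 1 median absolute deviation 1 rose and 0 fell, and with 24 hours fitted alone 0 rose and 1 fell. Tnfrsf11b, osteoprotegerin, the soluble decoy receptor that holds back osteoclast formation, had 0.15, 1.29 and 1.30. Its mean was 0.91 ± 0.24 (SE, n = 3, adjusted p = 0.0429), with replicate 4 near 0. The interleukin-1 genes Il1a (0.58, 0.60 and 1.08) and Il1b (0.21, 1.14 and 1.27) also rose, and both are known to promote bone resorption. Sema3a, a guidance protein that protects bone, had -0.76, -1.84 and -0.67. Without replicate 4, 2 of the 12 passed, without replicate 2 or 3, 1 did, and without replicate 5, 0 did.

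Of 47 genes of bone matrix and its remodelling, 6 rose and 2 fell (17%, near the 17.3% of named genes), and the median was 0.30, with 30 above 0. Col12a1, a collagen that sits on the surface of collagen I fibrils, had 0.82, 0.66 and 0.95 and rose 1.75-fold (adjusted p = 0.0165). Plod1, a lysyl hydroxylase needed for collagen cross-links, had 1.02, 0.62 and 1.24. Fmod, a proteoglycan that guides fibril assembly, had 1.68, 0.71 and 0.61, and Adamts1, Col5a3 and the lysyl oxidase Loxl2 (row means of 1.15, 0.15 and 0.14) also rose. Adamts5, the main aggrecan-degrading protease of cartilage, had -1.60, -0.94 and -2.32 and was 3.08-fold lower (adjusted p = 0.017). Mmp9, a gelatinase of osteoclasts and neutrophils, had -0.38, -0.27 and -0.66 and fell as well. Its rows had means of -0.46 and -0.42, of which the first passed alone. The chains of collagen I, the bulk of bone matrix, had means of -0.01 (Col1a1) and -0.37 (Col1a2) and did not pass. The 8 calls of the list became 11, 4, 3, 1, 6 and 0 with replicates 1 to 6 left out in turn, 4 with 24 hours alone, and 4 rises and 1 fall with quantile normalization or scaling. Of 23 integrin and focal adhesion genes 3 rose, Itga1, Itga6 and Fermt1, and Fermt2 fell (17.4%, near the 17.3% of named genes). Of 14 catenins and cadherins Ctnnd2 rose, and Cdh3, Arvcf and Cdh16 fell (28.6%). Arvcf was 6.61-fold lower (-1.64, -3.06 and -3.47).

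**Figure D4:**
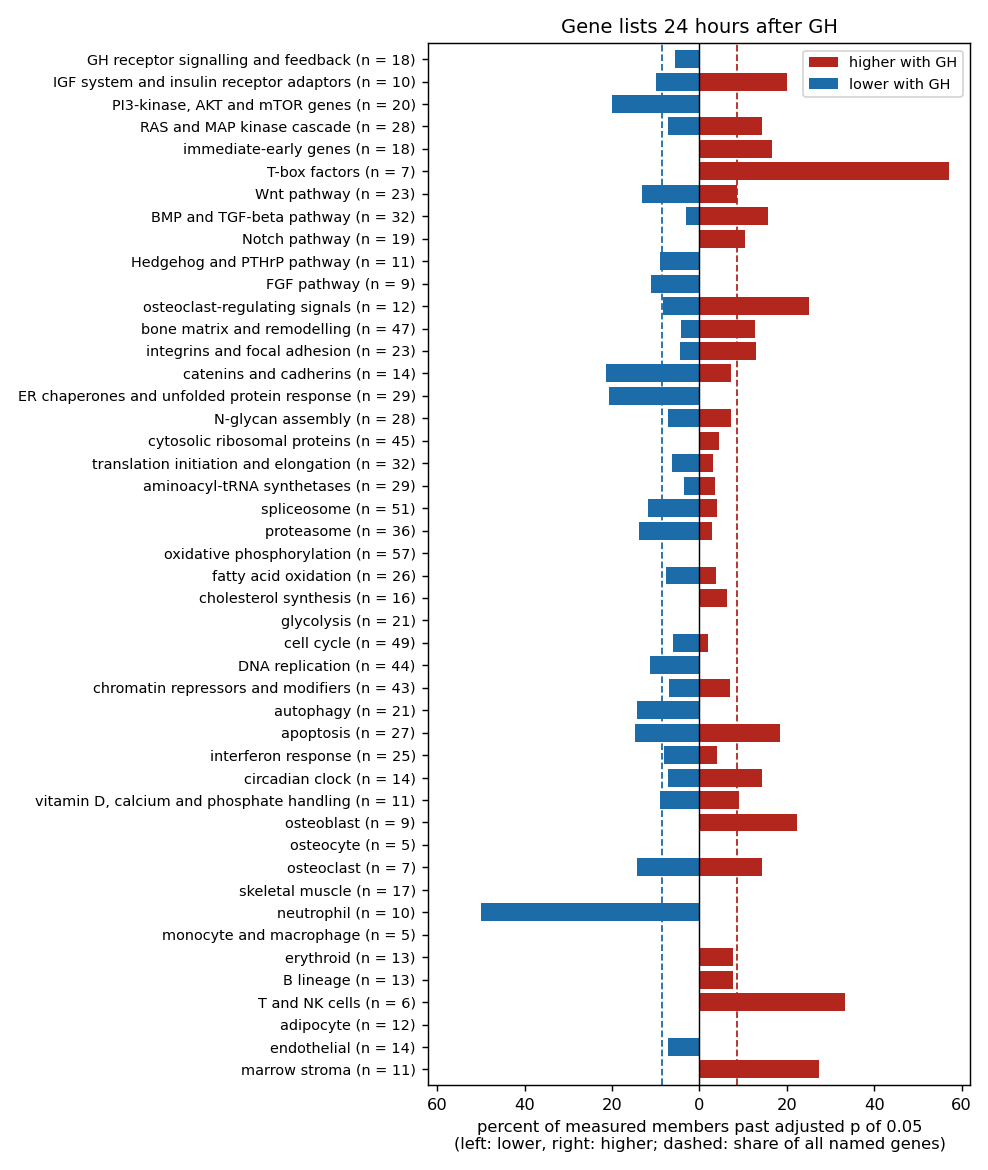
Percent of measured members of each gene list (n in brackets, at least 5 measured) that were higher (right, red) or lower (left, blue) with GH 24 hours after injection at an adjusted p under 0.05; dashed lines are the shares of all named genes, 8.62% higher and 8.66% lower. T-box factors reach 57.1% on the right and neutrophil markers 50% on the left. The oxidative phosphorylation, glycolysis, skeletal muscle, adipocyte, osteocyte, and monocyte and macrophage lists have no bar. Bars count gene averages, and 4 of 27 glycolysis rows passed alone.

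Markers of the cells that bone can hold were read in the same fit. Fewer cells of a type and less RNA per cell cannot be told apart in these bulk samples. Of 10 measured neutrophil genes, 0 rose and 5 fell (50%, against 8.66% of named genes that fell). In this list 9 were below 0 and the median was -0.87, while 46.4% of named genes were above 0. The granule protein genes Lcn2 (-2.06, -0.79 and -1.47) and Mpo (-1.15, -0.81 and -0.70), Cd177 (-2.25, -0.79 and -1.25), Ms4a3 (-2.00, -0.94 and -0.94) and Mmp9 fell. Ltf, S100a9, Padi4 and Prtn3 had means of -0.96, -0.85, -0.69 and -0.60 and did not pass, and Csf3r had 0.02. The list median was lowest on replicate 4, at -1.29, against -0.53 and -0.68 on replicates 5 and 6, and it was -0.52 at 6 hours. Mpo rested on 3 rows, with means of -0.87, 0.03 and -1.81, of which the last passed alone. Without replicate 4, 1 of the 10 passed, without replicate 2 or 3, 2 did, with quantile normalization 2 did, and with scaling to 1 median absolute deviation or 24 hours alone 3 did.

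Of 17 skeletal muscle genes, 16 were above 0 and 0 passed in limma (5 at an unadjusted p under 0.05), with a median of 0.34. The oxygen-binding protein gene Mb had 1.66, 0.24 and 0.72 (adjusted p = 0.0578). By array, the muscle median was 0.86 on replicate 4, 0.10 on replicate 5 and 0.24 on replicate 6. The part that neutrophil and muscle content plays in the other ratios was not tested. Of 9 osteoblast genes 2 rose (22.2%, against 17.3% of named genes that passed), and the median was -0.13. They were Msx2 (0.84, 1.16 and 1.98), a homeobox factor of osteoblast precursors, and Col5a3. The matrix protein gene Ibsp had a mean of -0.37 and the PTH receptor Pth1r one of -0.13. Of 5 osteocyte genes 0 passed in limma (1 at an unadjusted p under 0.05). Of 7 osteoclast genes (28.6% passed) Calcr, the calcitonin receptor, rose (0.83, 0.93 and 1.75) and Mmp9 fell. The proton pump subunit Tcirg1 and the phosphatase Acp5 had means of 0.09 and 0.16. Only 3 of 20 chondrocyte genes were measured: Col9a3 rose (0.86, 0.62 and 1.12), Hapln1 fell (-0.97, -0.62 and -1.25) and Col2a1 did not pass (-0.14, -0.69 and -0.86).

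In marrow stroma 3 of 11 genes rose and 0 fell (27.3%, against 17.3% of named genes), with a median of 0.43. Angpt1, a ligand of the TIE2 receptor, had 1.30 and 1.39 on 2 arrays, Kitl, stem cell factor, had 1.05, 0.52 and 1.33, and Prrx1, a factor of limb mesenchyme, had 0.70, 0.50 and 0.46. Cxcl12, the chemokine that holds blood stem cells in the marrow, had a mean of -0.73 and did not pass. Without replicate 2, 3 or 4, 0 of the stromal genes passed, and 1 did with 24 hours alone. Without replicate 2 or 3, Angpt1 and Kitl had too few values at 6 hours to be tested. Without replicate 4, Angpt1 had too few values at 24 hours to be tested. Kit, the receptor of Kitl, had -2.32 and -1.94 on 2 arrays and fell 4.39-fold. Among T and NK cell genes 2 of 6 rose (33.3%), Cd28 (1.97, 0.90 and 1.56) and Cd3e (0.55, 0.32 and 0.74). Among erythroid genes 1 of 13 rose (7.69%), Hbb-b2, an adult beta-globin (1.21, 0.74 and 1.49), which shares sequence with other globin genes. Among B lineage genes 1 of 13 rose (7.69%), Blnk, and of 3 megakaryocyte genes Selp rose (33.3%). Of 4 mast cell and basophil genes Cpa3 rose and Kit fell (50%). Of 14 endothelial genes Sox18 fell (7.14%). Of 5 monocyte and macrophage genes and 12 adipocyte genes 0 passed in limma (0 also at an unadjusted p under 0.05).

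**Figure D5:**
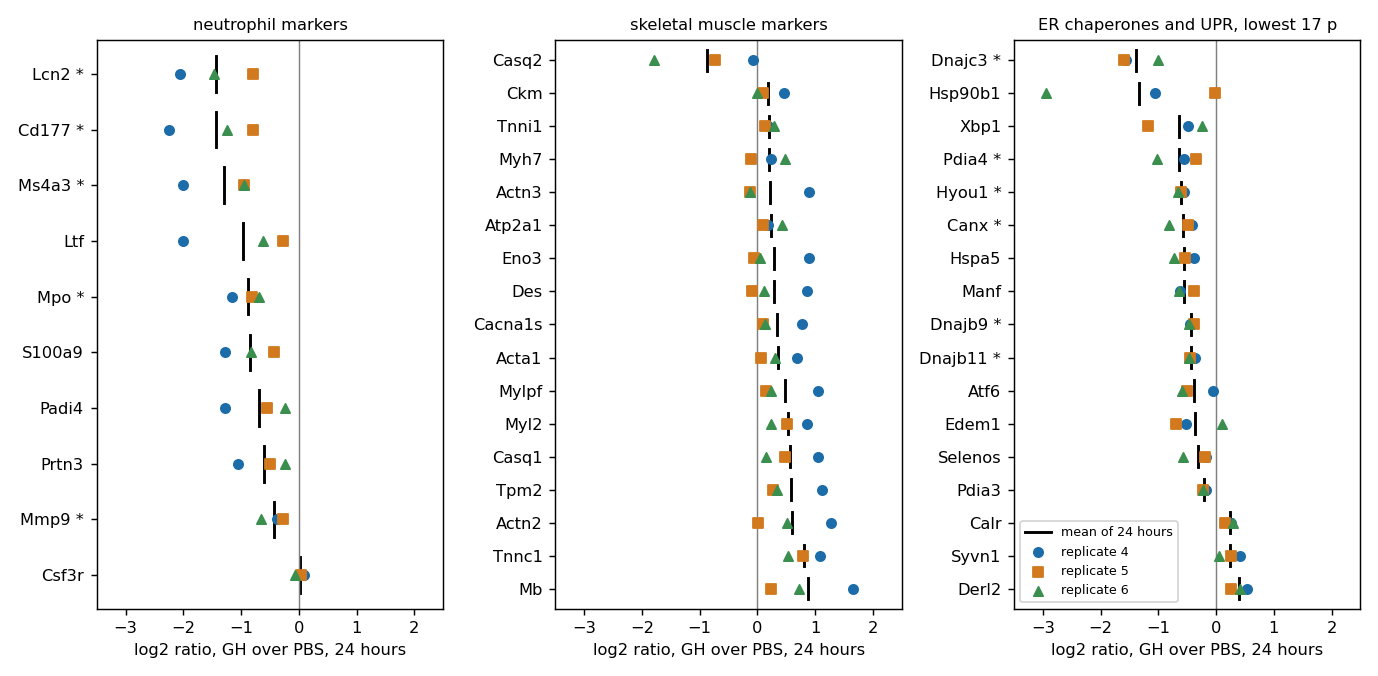
Log2 ratio of GH over PBS at 24 hours (x axis) for the measured neutrophil markers, skeletal muscle markers and the 17 genes of lowest p among endoplasmic reticulum (ER) chaperone and unfolded protein response (UPR) genes (y axes); symbols are the 3 arrays, the bar is their mean, and an asterisk marks genes that passed. Replicate 4 lies farthest from 0 for most neutrophil and muscle genes (list medians -1.29 and 0.86), while the ER chaperones that passed lie below 0 on all 3 arrays.

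The machinery of the secretory pathway was represented by 29 genes of ER chaperones and the unfolded protein response. Of these 0 rose and 6 fell (20.7%, near the 17.3% of named genes), and the median was -0.22. With quantile normalization or 24 hours fitted alone 2 fell, and with scaling to 1 median absolute deviation 1 fell. Hyou1, an ER chaperone of the HSP70 family, had -0.56, -0.60 and -0.67 and fell 1.52-fold (-0.61 ± 0.11, SE, n = 3, adjusted p = 0.020). Dnajc3, a co-chaperone that inhibits the kinase PERK, had -1.56, -1.60 and -1. The lectin chaperone Canx had -0.42, -0.49 and -0.81, and the co-chaperones Dnajb9 (-0.45, -0.38 and -0.47) and Dnajb11 (-0.36, -0.45 and -0.47) and the disulfide isomerase Pdia4 (-0.56, -0.34 and -1.03) also fell. The central ER chaperone Hspa5 and the factor Xbp1 had means of -0.55 and -0.64 and did not pass. Not all members were below 0: Derl2 had 0.40 and Calr 0.23. At 6 hours the list median was -0.07, and Hyou1 and Pdia4 had 0.09 and 0.11. These genes are also strongly used by marrow cells that secrete protein, and the part of cell content in their ratios was not tested. Without replicate 4 or 5, 0 of the 29 passed, and without replicate 2 or 3, 2 did. Of 28 genes of N-glycan assembly 14.3% passed, below the 17.3% of named genes. Of these 28, 2 rose, Alg11 and the oligosaccharyltransferase subunit Stt3a, and 2 fell on an average of rows. The falls were Man1a, whose rows did not pass alone (means of -0.84 and -0.39), and Magt1, whose rows had means of 0.06 and -1.52.

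Spliceosome and proteasome genes passed about as often as named genes in general (17.3%), and genes of translation less often. Of 51 spliceosome genes 2 rose and 6 fell (15.7%), with a median of -0.28 and 39 below 0. Snrpa, the A protein of the U1 particle, had -0.97, -0.62 and -1.15 (adjusted p = 0.0195), and Snrpe, a core Sm protein, had -1.25, -2.25 and -4.06 (adjusted p = 0.0348). Of 36 proteasome genes 1 rose and 5 fell (16.7%), among them the ATPase subunit Psmc6 (-0.94, -1.18 and -1.69) and the deubiquitinase Psmd14 (-1.18, -1.51 and -0.56). Leaving out replicates 1 to 6 in turn gave 15, 2, 4, 0, 2 and 0 spliceosome genes and 8, 1, 4, 0, 2 and 0 proteasome genes. With quantile normalization 1 spliceosome gene rose and 3 fell, and 1 proteasome gene rose and 1 fell. With scaling to 1 median absolute deviation 0 spliceosome genes rose and 3 fell, and 1 proteasome gene rose and 3 fell. Of 32 translation factors 1 rose and 2 fell (9.38%), with a median of -0.26, and of their 50 rows 2 were higher and 7 lower. The cap-binding protein gene Eif4e had -0.69, -0.81 and -1.47, and Eef1g had 0.79, 0.55 and 0.51, an average of rows with means of -0.14 and 1.37. Of 45 cytosolic ribosomal proteins 2 rose (4.44%), Rpl30 (1.24, 0.85 and 1.97) and Rpl27 (0.99, 0.41 and 1.44), and 0 fell, at a median of -0.09. Ribosomal protein genes have many processed copies, so probes for them may not be specific. Of 29 aminoacyl-tRNA synthetases Vars2 rose and Lars fell (6.90%).

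Averaged per gene, genes of the dividing cell passed less often than the 17.3% of named genes. Taken singly, 3 of 55 DNA replication rows were higher and 6 lower, and 4 of 71 cell cycle rows were higher and 8 lower. Of all named rows 19.3% passed. Of 44 DNA replication genes 0 rose and 5 fell (11.4%), with a median of -0.22. Cdc7, the kinase that fires replication origins, had -0.97, -3.06 and -3.32 and was 5.47-fold lower (adjusted p = 0.019), and Rfc4, a subunit of the clamp loader, had -1.60, -1.12 and -2.84. Gins1, Cdc45 and Pole2 fell by 0.94, 0.87 and 0.51 on the log2 scale. Without replicate 2 or 4, 1 passed, without replicate 3, 2 did, and with quantile normalization, scaling or 24 hours alone 3 did. Of 49 cell cycle genes 1 rose and 3 fell (8.16%), with a median of -0.21. Esco1, the cohesin acetyltransferase, had -1.94, -1.60 and -2.00 and was 3.60-fold lower (adjusted p = 0.0082). The mitotic factor Foxm1 had 0.29, 0.39 and 0.45 and rose. Of 57 genes of oxidative phosphorylation and 21 of glycolysis, 0 passed in limma, with medians of 0.03 and 0.20, while 4 and 2 of them had an unadjusted p under 0.05. Taken singly, 4 of 27 glycolysis rows were higher and 0 lower. Among these 4 were a row of Pfkl and a row of Ldha, with means of 0.91 and 0.73. Of 62 oxidative phosphorylation rows 0 passed.

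Lastly, the 24-hour ratios were set against those of 6 hours, which came from other animals. Of the features that passed at 24 hours, 3406 (98.9%) had the same sign at 6 hours, and 554 had passed there too, of 603 that passed at 6 hours. Of all features 20.6% passed at 24 hours, and the share with the same sign at both times is not given here. Taken in the 24-hour direction, their median log2 ratio was 1.01 at 24 hours and 0.66 at 6 hours, and 3065 were larger in size at 24 hours. They were chosen for passing at 24 hours, so these values describe the choice as well. Both times also share 1 spread in the fit and 1 dye orientation, so the calls at the 2 times are not independent. A test of the difference itself found 0 of 16678 features (0%) in limma, with a smallest adjusted p of 0.982, while 506 had an unadjusted p under 0.05. Zbtb33 had a difference of -1.97 ± 0.50 (unadjusted p = 0.0063) and Hyou1 one of -0.70 ± 0.16 (0.0041), each on 1 row. Neither held after adjustment, so no gene is shown to differ between the times. Leaving out any 1 array gave 0 features in the difference as well.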

How the data were processed

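The values deposited by the authors are log2 ratios for 21446 rows. Of these rows 17414 held a value on all 6 arrays and 1257 held no value. The method of background correction and normalization is not stated in any source used. GH and PBS pools, times and dyes were read from the labels. RNA was amplified from an oligo(dT) primer per the labels' protocols. The platform annotation gave 1 symbol to 11813 rows, several to 559 and none to 9074. Rows of 1 symbol were averaged per array. The other rows stayed single. Features with fewer than 2 values at either time were left out.

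Tests used limma 3.58.1 in R 4.3.3 (lmFit, eBayes) with 1 mean per time on all 6 arrays, so that both times share 1 spread. The prior had 2.51 degrees of freedom and an SD of 0.28. Tests were two-sided, with Benjamini-Hochberg adjustment over all features and a threshold of 0.05. Errors are moderated SEs. The script was tested on simulated ratios.

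The members, taken by time of death alone, and all gene lists were chosen with earlier results of these data known, and lists are described by counts and medians with no set test. Named genes are those with the largest ratio on their least changed array (10 a direction), genes whose rows agree or oppose, 16 preset GH and bone genes, and up to 4 members per list of lowest p. Others were named after their values were seen. Alternatives were other centring, scaling, missing-value, spread, prefix and row rules and each replicate left out in turn. The number of arrays limits the precision.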

Additional observations from a re-analysis of the deposited data

How the results depend on the processing

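No paired analysis was possible because the replicate numbers of the 2 times do not overlap. The 3444 features that passed became 2261 when 24 hours was fitted alone (1952 of them shared), 32 when the prefix of the scan file name was a covariate, and between 0 (without replicate 6) and 4201 (without replicate 1) when each replicate was left out. The 4116 rows became 2631, 31 and between 0 and 4961 under the same changes. With each array scaled to 1 median absolute deviation 2472 features passed, 64.1% of them higher against 58.3% before. In the difference between the times 2 features passed with the prefix as a covariate and 0 under the other alternatives run for it, which left out the row rules and 24 hours alone. Of 232 named genes 148 had passed, and 49 of these missed the threshold with 24 hours alone, 147 with the prefix, 108 without replicate 4 (34 passed and 6 could not be tested) and 142 without replicate 6 (0 passed and 6 could not be tested). Signal over background was not known, so dim probes could not be left aside. Most of the features that passed with the prefix as a covariate were not among the 3444. For all these changes the cause was not tested.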

Other observations

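In further gene groups, 27 apoptosis genes held 5 rises and 4 falls (33.3%, against 17.3% of named genes). The caspase-8 inhibitor Cflar had 0.67, 0.88 and 1.72 and Bcl2 had 0.67, 0.62 and 0.76 on replicates 4, 5 and 6, and both rose, as did Bak1, Bok and Pmaip1, which are known to promote cell death. The Bcl2 values average rows with means of 1.10 and 0.27, of which the first passed alone. Casp1 (-1.79, -0.84 and -1.56), Fasl and Xiap fell. The gene average of Diablo also passed, but its 2 rows tested alone had means of -0.38 and -0.32 and did not (adjusted p of 0.161 and 0.155), and a further row had too few values at 6 hours to be tested, so its average mixes different rows on different arrays. With replicates 1 to 6 left out in turn, 11, 5, 5, 1, 5 and 0 of the 27 passed, and 5 did with 24 hours fitted alone. Of 14 clock genes Npas2 (0.70, 0.61 and 0.73) and Rorb (0.78, 0.65 and 0.66) rose and Rora (-0.68, -0.52 and -1.28) fell on the average of 2 rows that did not pass alone (21.4%), while Arntl had a mean of -1.30 and did not pass (adjusted p = 0.0666).

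In the lists of this paragraph between 6.25% and 18.2% of measured genes passed, around or below the share of named genes. Of 43 chromatin genes 3 rose and 3 fell. Besides Zbtb33 and Cbx3, Hdac11 fell (-1.18, -1.43 and -2.18), and Chd3, Hdac6 and Cbx2 rose by means of 0.46 to 0.63. Of 21 autophagy genes 3 fell, Atg4c (-0.60, -1.18 and -1.51), Atg5 (-1.69, -0.94 and -0.79) and Atg2b (-1.51, -1.40 and -4.06), and 0 rose. Of 25 interferon response genes Mx2 rose and Psmb8 and Tap2 fell, and 0 passed with quantile normalization. Of 26 fatty acid oxidation genes Ehhadh rose (0.68, 0.89 and 1.20) and Slc27a2 and Acsl4 fell, Acsl4 on rows with means of -0.50 and -2.56 that were not both measured on every array. Of 16 cholesterol synthesis genes Ebp rose (0.80, 1.76 and 1.79). Of 11 genes of vitamin D, calcium and phosphate handling Calcr rose and Atp2b1 fell (-0.63, -0.40 and -0.82). The rows of Atp2b1 had means of -1.03 and -0.21, of which the first passed alone.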
